A study of Mus musculus with 9 samples.

Results

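The genes described here carry out and control the making of cholesterol and fatty acids. They are 31 genes named by symbol, taken from the 20087 named genes of an RNA sequencing table of mouse embryos, and all 31 were found in it. By role they fall into 6 regulators, 8 enzymes that lead from acetyl-CoA through mevalonate to squalene, 10 enzymes that turn squalene into cholesterol, 1 sterol carrier and 6 enzymes of fatty acid synthesis. All 31 passed the filter for testing (3 or more of the 9 libraries at 10 or above), as did 13343 genes in all.

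Sterol regulatory element binding proteins (SREBPs) are transcription factors made as precursors in the membrane of the endoplasmic reticulum. When sterols are scarce, the escort protein Scap carries the precursor to the Golgi, where proteases free the part that enters the nucleus and activates sterol and fatty acid genes. When sterols are ample, the Insig proteins hold the Scap and SREBP pair back, so the pathway is under feedback from its own product. A cleaving embryo draws on stored lipid and also makes sterols and fatty acids for its membranes.

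The embryos were of the B6D2F1 background and received small interfering RNA (siRNA, short double-stranded RNA that lowers the messenger RNA it matches) as zygotes. The knockdown groups received siRNA targeting both Hdac1 and Hdac2, which encode histone deacetylases (labelled Hdac1/2 cKD) or targeting Sin3a, which encodes the scaffold of a corepressor complex that contains both deacetylases (labelled Sin3a KD), and the control group received a nonspecific siRNA (labelled NC). Collection was at E2.75, a time close to the morula stage, in every group, and each group has 3 libraries of polyadenylated RNA, each from a pool of 60 embryos. Whether the 3 libraries of a group are separate collections is not given in the labels; p-values here stand for spread between these libraries, which may be technical.

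Values are gene-level read counts normalised by the authors, called normalised counts below. They added up to 11.9 to 13.5 M per library, and reads were estimated at 8.38 M for NC replicate 3, the shallowest, and 16.9 M for NC replicate 1, the deepest. NC replicate 3 also had the highest share of genes at 0 (28.4%, against 13.2% in the library with the lowest share). It stood apart from the other NC libraries on the first principal component, at -96.6 against -16.8 and -20.7 (26.5% of the variance), and on the second, at -58.5 against 2.3 and 39.1 (21.1%). Without it 9 of the 31 genes described here were called in Hdac1/2 cKD against NC (7 with it), 2 in Sin3a KD against NC (3 with it; Msmo1 was lost, limma adjusted p = 0.0945) and 13 in Hdac1/2 cKD against Sin3a KD (12 with it). The targets were lowered in part. Hdac1 ranged over 769.6 to 1052 in Hdac1/2 cKD libraries against 4925 to 6245 in NC (16.9% of the NC mean), Hdac2 over 193 to 371 against 2020.3 to 2492 in NC (13.3%), and Sin3a over 354 to 520.1 in Sin3a KD libraries against 1215 to 1779 in NC (29.0%). Hdac1 was also at 34.3% of the NC mean in Sin3a KD libraries (limma adjusted p = 0.00297). All 11 morula and early lineage markers were present, with summed levels of 34984 to 38175 in Hdac1/2 cKD, 46589 to 50829 in Sin3a KD and 48831 to 53817 in NC libraries. Of these 11 markers 7 fell in Hdac1/2 cKD (63.6%) and 3 in Sin3a KD (27.3%) against NC, at a limma adjusted p below 0.05. The shares that fell over all tested genes were 7.8% and 4.36%. Of 11 markers of cumulus and granulosa cells, which surround the egg, 7 were in the table, with summed levels of 65.8 to 74.5 in Hdac1/2 cKD, 50.7 to 61.1 in Sin3a KD and 12.3 to 33.2 in NC libraries; Cyp19a1 was at 0 in all NC libraries. The 10 oocyte transcripts summed to 324 to 351 in Hdac1/2 cKD, 317 to 356 in Sin3a KD and 244 to 389.8 in NC libraries, and of the 8 tested in each comparison with NC 0 passed (limma; 0 also at an unadjusted p below 0.05). The part of these differences in the results below was not tested. In pooled embryos, fewer cells of a kind and less RNA per cell cannot be told apart.

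Against NC, Scd2, Srebf2 and Insig1 rose in Hdac1/2 cKD embryos, while Msmo1, Stard4, Fdft1 and Sqle fell. In Sin3a KD embryos 0 of the 31 genes rose against NC (limma; 4 were higher at an unadjusted p below 0.05), and Scd1, Elovl6 and Msmo1 fell. Genes were called at a limma adjusted p below 0.05, with Benjamini-Hochberg adjustment over all tested genes of a comparison. With 7 of 31 called, 22.6% of the genes passed in Hdac1/2 cKD against NC, beside 15.6% of all tested genes. Calls in both directions are also what all tested genes show (7.81% higher and 7.8% lower), so the 3 genes that rose and the 4 that fell are given as single genes, not as a pattern of the module. With 3 of 31 called, 9.68% passed in Sin3a KD against NC, next to 7.96% of all tested genes (3.6% higher and 4.36% lower), a share near the background. Both comparisons use the same NC libraries, so they are not independent.

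The knockdowns were also compared with each other. Between Hdac1/2 cKD and Sin3a KD, 12 of 31 genes (38.7%) passed, beside 17.3% of all tested genes. The 31 genes and all lists used below were chosen with earlier results of these data known. A share above that of all tested genes is therefore no test of the module or of a list. Scd2, Srebf2, Elovl6 and Scd1 were higher in Hdac1/2 cKD (8.49% of all tested genes were higher), and Stard4, Sqle, Hsd17b7, Msmo1, Acat2, Hmgcs1, Fdft1 and Fdps were lower (8.78% of all). The middle of the module stayed near that of all genes: its median log2 fold change was 0.01 in Hdac1/2 cKD against NC, 0.05 in Sin3a KD against NC and 0.06 in Hdac1/2 cKD against Sin3a KD, beside 0.03, 0.03 and 0.01 over all tested genes. Over the 3 comparisons 13 genes passed at least once, 8 passed in 2 or more, Msmo1 passed in all 3, and 18 passed in none. Scaling all libraries to equal totals changed the split of calls to 4 higher and 3 lower in Hdac1/2 cKD against NC (3 and 4 as reported) and to 1 higher and 2 lower in Sin3a KD against NC (0 and 3 as reported).

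**Figure D1:**
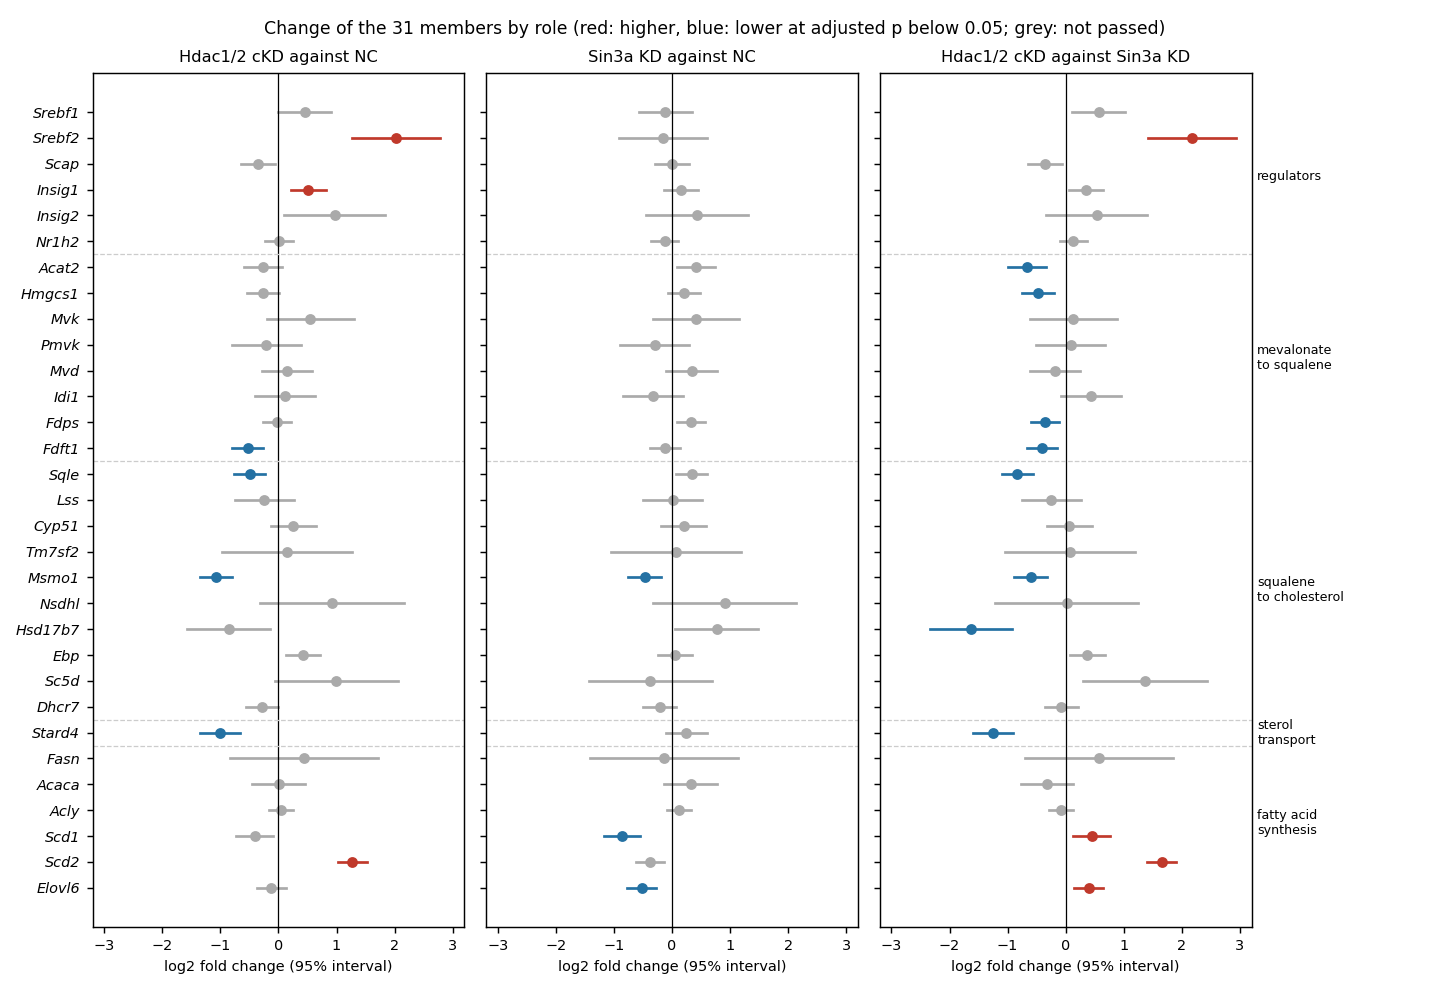
Log2 fold change of each of the 31 genes in the 3 comparisons, as points with 95% intervals, arranged by role from the regulators at the top to fatty acid synthesis at the bottom; genes that passed are red (higher in the group named first) or blue (lower). The sterol enzymes that passed lie on the lower side in each panel, with Msmo1 alone in Sin3a KD against NC. Sterol enzymes that did not pass lie on both sides. Srebf2 and Scd2 lie far to the higher side in both panels with Hdac1/2 cKD.

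Without regard to the test, the libraries of the groups did not overlap for 5 genes higher and 7 lower in Hdac1/2 cKD against NC, where 17.1% and 16% of all tested genes did so. In Sin3a KD against NC there were 3 higher and 4 lower (13.9% and 13.3% of all tested genes). The knockdowns, Hdac1/2 cKD over Sin3a KD, had 11 higher and 10 lower (20.4% and 19.3% of all).

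Promoter windows are shown for 4 genes that differed in direction: Srebf2 and Insig1, which rose in Hdac1/2 cKD against NC, Msmo1, which fell in both knockdowns, and Hmgcs1, an early enzyme that was lower in Hdac1/2 cKD than in Sin3a KD. Each window runs from 250 bases before to 50 after the gene start in RefSeq (build GRCm38.p6), 5′ to 3′ on the gene's strand. Capitals mark matches to the core of the sterol regulatory element, TCACNCCA, and to the CCAAT box bound by the SREBP partner NF-Y, on either strand (a CCAAT on the other strand reads ATTGG). The windows lie at chr15:82147019-82147318 on the forward strand (Srebf2), chr5:28071162-28071461 on the forward strand (Insig1), chr8:64733529-64733828 on the reverse strand (Msmo1) and chr13:119690101-119690400 on the forward strand (Hmgcs1).
Srebf2: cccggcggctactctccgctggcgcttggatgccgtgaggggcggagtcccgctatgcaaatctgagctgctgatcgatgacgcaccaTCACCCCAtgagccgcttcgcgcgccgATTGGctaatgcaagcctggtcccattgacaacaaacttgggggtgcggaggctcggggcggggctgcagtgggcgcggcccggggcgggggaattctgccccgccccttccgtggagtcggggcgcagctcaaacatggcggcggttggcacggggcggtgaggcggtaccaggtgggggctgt
Insig1: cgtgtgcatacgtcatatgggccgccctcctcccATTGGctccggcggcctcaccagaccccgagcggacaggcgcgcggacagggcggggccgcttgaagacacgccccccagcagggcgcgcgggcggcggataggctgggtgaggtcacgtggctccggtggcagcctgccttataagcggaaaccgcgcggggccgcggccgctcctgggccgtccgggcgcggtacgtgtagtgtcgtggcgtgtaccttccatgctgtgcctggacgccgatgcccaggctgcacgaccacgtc
Msmo1: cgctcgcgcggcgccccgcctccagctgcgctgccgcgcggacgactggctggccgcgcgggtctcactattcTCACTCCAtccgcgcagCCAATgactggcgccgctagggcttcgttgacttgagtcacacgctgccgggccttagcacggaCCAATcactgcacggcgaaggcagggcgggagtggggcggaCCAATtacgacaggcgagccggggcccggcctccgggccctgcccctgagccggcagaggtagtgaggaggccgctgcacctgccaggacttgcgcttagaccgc
Hmgcs1: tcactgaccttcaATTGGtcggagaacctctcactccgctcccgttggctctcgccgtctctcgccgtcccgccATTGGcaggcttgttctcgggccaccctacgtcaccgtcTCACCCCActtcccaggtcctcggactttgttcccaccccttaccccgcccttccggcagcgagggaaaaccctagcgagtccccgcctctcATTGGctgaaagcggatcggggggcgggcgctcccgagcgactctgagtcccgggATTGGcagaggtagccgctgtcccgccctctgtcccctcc

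The element core TCACNCCA, searched on both strands, began 162 bases before the start of Srebf2, 137 before that of Hmgcs1 and 177 before that of Msmo1, and was not among the letters of the Insig1 window. The 25 genes that have a window have 33 in all, since some have more than 1. The core occurred in 3 of these 33, 1 each for 3 genes, and in 4.36% of all 32851 windows; this core was chosen after the longer TCACNCCAC, which contains it, had been found in Hmgcs1 alone (1.24% of all windows). CCAAT was found in 21 of the 33 windows (20 of the 25 genes) and in 37.4% of all windows, with 4 copies in the Hmgcs1 window, 3 in that of Msmo1 and 1 each in those of Srebf2 and Insig1. The GC box GGGCGG occurred in 24 of the 33 windows (20 genes; 35.7% of all windows), and the E-box CACGTG in 6 of 33 (5 genes; 7.15% of all), among them that of Insig1, 101 bases before its start. The genes Fdft1, Fdps, Scd1, Scd2, Sqle and Stard4 were not matched to a window. These matches describe the letters and do not show binding. Srebf2, Hmgcs1 and Msmo1, whose windows hold the element core, had log2 fold changes of 2.03, -0.27 and -1.08 in Hdac1/2 cKD against NC. The Hmgcs1 change did not pass (limma adjusted p = 0.185). A link between the matches and the changes was not tested.

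Among the regulators, Srebf2 and Insig1 rose in Hdac1/2 cKD embryos. Srebf2, on chr15:82147181-82205379 (build GRCm38, forward strand), encodes SREBP-2, the form that acts mainly on cholesterol genes. It had normalised counts of 401, 370.3 and 591 in Hdac1/2 cKD libraries and 74.4, 84.1 and 147 in Sin3a KD libraries, against 148, 63.3 and 135 in NC libraries. Each Hdac1/2 cKD library lay above each of the other 6, and the Sin3a KD and NC libraries overlapped. The mean in Hdac1/2 cKD was 3.93 times that in NC (log2 fold change 2.03 ± 0.35 SE, limma adjusted p = 0.00211) and 4.46 times that in Sin3a KD (2.18 ± 0.35, adjusted p = 0.00103). Insig1, on chr5:28071363-28078662 (forward strand), is itself a target of the SREBPs and restrains them. Its counts were 851, 755 and 920.0 in Hdac1/2 cKD libraries and 626, 644 and 697 in Sin3a KD libraries, against 598, 531 and 634 in NC libraries. All 3 Hdac1/2 cKD libraries were above the rest, by 1.43 times over NC (limma adjusted p = 0.0205). Against Sin3a KD the log2 fold change of Insig1 was 0.36 (adjusted p = 0.0915), and Sin3a KD against NC gave 0.16 (adjusted p = 0.51). The Insig1 call was lost without NC replicate 2 (adjusted p = 0.0515), Hdac1/2 cKD replicate 1 (0.0671) or Hdac1/2 cKD replicate 3 (0.0939), or without NC replicate 1 and Sin3a KD replicate 1 together, each of which is on a lane of its own (the single-lane libraries, 0.061); the Srebf2 call was kept in every fit tried.

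The other 4 regulators passed in 0 comparisons (limma, as run on all 9 libraries; unadjusted p-values were below 0.05 for Insig2 higher and Scap lower in Hdac1/2 cKD against NC, and for Srebf1 higher and Scap lower in Hdac1/2 cKD against Sin3a KD). Srebf1 encodes SREBP-1, the form that acts mainly on fatty acid genes, and had counts of 584, 811 and 891 in Hdac1/2 cKD libraries and 488, 535 and 496 in Sin3a KD libraries, against 461, 458 and 779 in NC libraries. Its Hdac1/2 cKD libraries lay above those of Sin3a KD and overlapped those of NC at NC replicate 3, without which it was called (adjusted p = 0.0214). Against Sin3a KD its adjusted p was 0.0866, and it was called in 4 of 20 alternatives, among them without NC replicate 3 or Hdac1/2 cKD replicate 1 (lowest adjusted p = 0.0248). Scap had counts of 829, 1031 and 901 in Hdac1/2 cKD and 1227, 1106 and 1192 in Sin3a KD, against 1367, 1162 and 1009 in NC. The Hdac1/2 cKD and NC libraries overlapped here as well, and without NC replicate 3 Scap too was called, lower in Hdac1/2 cKD (limma adjusted p = 0.0412). Insig2, which acts like Insig1, had counts of 104, 84.0 and 119.6 in Hdac1/2 cKD and 82.4, 54.4 and 76.2 in Sin3a KD, against 31.8, 102 and 42.1 in NC, where NC replicate 2 alone reached the knockdown levels. Without that library Insig2 was called higher in Hdac1/2 cKD (adjusted p = 0.0149). Nr1h2, the oxysterol receptor LXR beta which raises sterol export genes when sterols are ample, had counts of 2038, 2025 and 1878 in Hdac1/2 cKD and 1737, 1795 and 1878 in Sin3a KD, against 2254, 1802 and 1869 in NC. Its log2 fold change in Hdac1/2 cKD against NC was 0.01, with a 95% interval of -0.23 to 0.25.

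**Figure D2:**
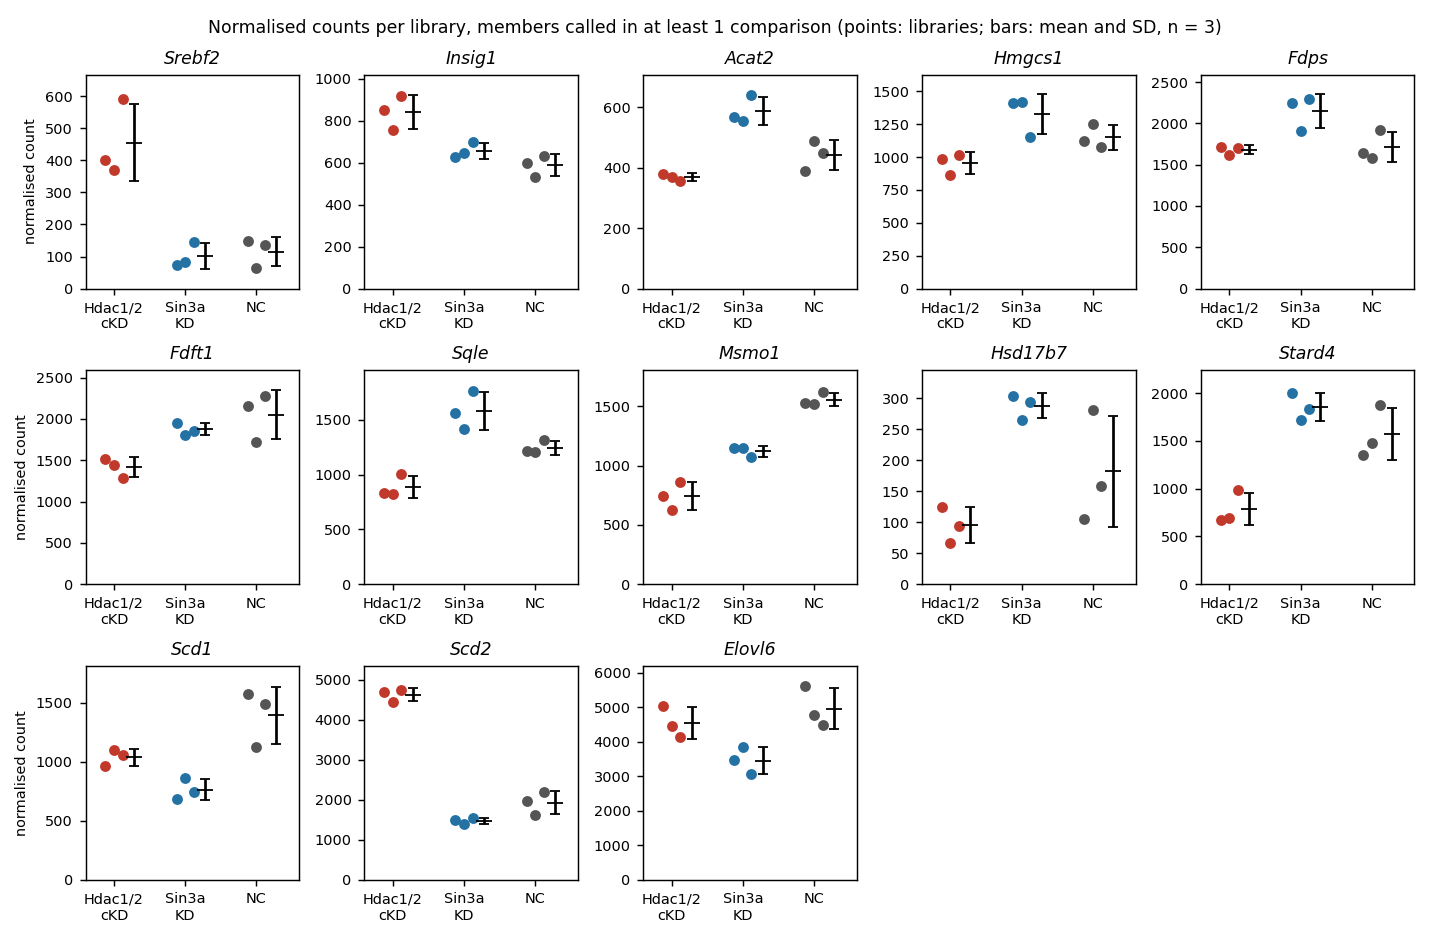
Normalised counts in each library (points) of the 13 genes that passed in at least 1 comparison, with the mean and SD of the 3 libraries of each group; the axes start at 0 and differ between panels. Hdac1/2 cKD libraries stand above the other groups for Srebf2, Insig1 and Scd2 and below both for Acat2, Hmgcs1, Fdft1, Sqle, Msmo1 and Stard4.

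Of the 8 enzymes from acetyl-CoA to squalene, 0 rose and 1 fell in Hdac1/2 cKD against NC (limma; 0 higher and 1 lower at an unadjusted p below 0.05), and 0 passed in Sin3a KD against NC (2 higher at an unadjusted p below 0.05). Over all tested genes, 7.81% rose and 7.8% fell in Hdac1/2 cKD against NC, and 7.96% passed in Sin3a KD against NC. Against Sin3a KD, 4 of the 8 (50%) were lower in Hdac1/2 cKD, beside 8.78% of all tested genes. Of these calls Fdps and Fdft1 were each kept in 10 of 20 alternatives, Hmgcs1 in 13 and Acat2 in 19. Fdft1, or squalene synthase, commits the pathway to sterols. It had counts of 1519, 1447 and 1281 in Hdac1/2 cKD libraries and 1955, 1811 and 1859 in Sin3a KD libraries, against 2161, 1719.8 and 2276 in NC libraries. Every Hdac1/2 cKD library was below every other one, with a mean 0.69 times that of NC (log2 fold change -0.53 ± 0.12 SE, limma adjusted p = 0.0107) and a log2 fold change of -0.41 against Sin3a KD (adjusted p = 0.0351). The first call was lost without Hdac1/2 cKD replicate 3 (0.0544), with lane as a factor (0.0621), without variance trend and robust moderation (0.0569) and without both single-lane libraries (0.0567). The second was lost in 6 of the 9 fits that leave out 1 library, with adjusted p-values of 0.0533 to 0.135, when any of the 6 knockdown libraries was left out. It was also lost with no filter on low values (0.0518) and without trend and robust moderation (0.108). The same held without both single-lane libraries (0.128) and with lane as a factor (0.271). On the transcripts of GENCODE vM21, 14.3% of the 31-base words of Fdft1 were shared with the gene model Gm6781 and 18.3% of its exon bases lay under Ctsb on the opposite strand; whether the library kit kept the strand is not stated, so reads may be split there.

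Acat2 makes acetoacetyl-CoA, the first step. Its counts were 381, 369.8 and 355 in Hdac1/2 cKD libraries, against 567, 557 and 642 in Sin3a KD libraries; NC libraries had 391, 489 and 451. The 3 groups did not overlap and NC lay between the knockdowns, but only the knockdowns differed past the threshold (log2 fold change -0.67 ± 0.15 SE, limma adjusted p = 0.00779; 0.0531 with lane as a factor). Acat2 shares 43.7% of its 31-base words with Acat3, so reads of this gene can be split between copies. Hmgcs1, which makes the precursor of mevalonate, had counts of 987, 863 and 1019.9 in Hdac1/2 cKD, against 1412, 1415 and 1155 in Sin3a KD; NC libraries had 1122, 1255 and 1074. Hdac1/2 cKD libraries were again below all others, with log2 fold changes of -0.47 against Sin3a KD (adjusted p = 0.0219) and -0.27 against NC (adjusted p = 0.185). The Hmgcs1 call was lost without Hdac1/2 cKD replicate 1 (0.0518) or 2 (0.103) or Sin3a KD replicate 1 (0.0948) or 2 (0.0806). It was also lost with lane as a factor (0.19), without trend and robust moderation (0.0671) and without both single-lane libraries (0.107). Of the exon bases of Hmgcs1, 12.1% lie under Gm48342 on the opposite strand.

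Fdps, farnesyl diphosphate synthase, stands at the branch between sterols and isoprenoids and differed from the genes above: its Hdac1/2 cKD libraries overlapped those of NC and all lay below those of Sin3a KD. Counts were 1713, 1616 and 1706 in Hdac1/2 cKD, against 2243, 1912 and 2295 in Sin3a KD; NC libraries had 1635, 1586 and 1917. The log2 fold change in Hdac1/2 cKD against Sin3a KD was -0.35 (limma adjusted p = 0.0466), and in Sin3a KD against NC it was 0.33 (0.0913). The Fdps call was kept in 10 of 20 alternatives. It was lost in 5 of the 9 fits that leave out 1 library (0.0991 to 0.154 without any Hdac1/2 cKD replicate or Sin3a KD replicate 1 or 3), with equal totals (0.0679), no filter on low values (0.077), without trend and robust moderation (0.119), without both single-lane libraries (0.161) and with lane as a factor (0.412). Of its 31-base words, 24.6% are shared with the overlapping gene model Gm43738. Mvk, Pmvk and Mvd, which phosphorylate and decarboxylate mevalonate, and Idi1, the isomerase after them, passed in 0 comparisons (limma; 0 also at an unadjusted p below 0.05). Over the 9 libraries Mvk ranged over 37.1 to 92.2, Pmvk over 152 to 325, Mvd over 162 to 261 and Idi1 over 298 to 646 normalised counts; 18.4% of the words of Idi1 are shared with Gm13502.

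Of the 10 enzymes from squalene to cholesterol, 0 rose in any comparison by limma. At an unadjusted p below 0.05, 1 was higher in Hdac1/2 cKD against NC, 2 in Sin3a KD against NC and 2 in Hdac1/2 cKD against Sin3a KD. Over all tested genes 7.81%, 3.6% and 8.49% were called higher in these comparisons, in the same order. Msmo1, on chr8:64718139-64733792 (reverse strand), takes part in the removal of methyl groups from the sterol ring and was lower in both knockdowns, more so in Hdac1/2 cKD. Its counts were 739.8, 625 and 864 in Hdac1/2 cKD libraries and 1145, 1145 and 1069.6 in Sin3a KD libraries, against 1528, 1518 and 1622 in NC libraries. The 3 groups were in this order without overlap. The Hdac1/2 cKD mean was 0.478 times that of NC (log2 fold change -1.08 ± 0.13 SE, limma adjusted p = 0.000165), a call kept in every fit tried. Hdac1/2 cKD was also lower than Sin3a KD (-0.60 ± 0.13, adjusted p = 0.00603; 0.159 with lane as a factor). In Sin3a KD against NC the mean was 0.72 times that of NC (-0.47 ± 0.13, adjusted p = 0.0398), and this call held in 9 of 20 alternatives and in 3 of the 9 fits that leave out 1 library. It was lost without NC replicate 1 (0.0823) or 3 (0.0945), Hdac1/2 cKD replicate 1 (0.0557), or Sin3a KD replicate 1 (0.107), 2 (0.0725) or 3 (0.137).

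Sqle, squalene epoxidase, inserts the oxygen that precedes ring closure and is known as a slow, controlled step of the pathway. It had counts of 836, 824 and 1002 in Hdac1/2 cKD libraries and 1565, 1414 and 1760.1 in Sin3a KD libraries, against 1214, 1203 and 1319 in NC libraries. No library of a group overlapped another group, and NC lay between the knockdowns. Sqle was lower in Hdac1/2 cKD than in NC (log2 fold change -0.49 ± 0.12 SE, limma adjusted p = 0.017) and than in Sin3a KD (-0.83 ± 0.12, adjusted p = 0.00063). Sin3a KD against NC gave 0.34, with a 95% interval of 0.07 to 0.61 (adjusted p = 0.115). The difference from NC was lost without Hdac1/2 cKD replicate 1 (0.068) or 2 (0.077), under equal totals (0.0679), without trend and robust moderation (0.0611), with lane as a factor (0.0549) and without both single-lane libraries (0.0567); that from Sin3a KD was kept in every fit tried. Hsd17b7, a sterol ketone reductase that acts with Msmo1 in removing the methyl groups, had counts of 125, 66.8 and 94.2 in Hdac1/2 cKD libraries, against 304, 265 and 294 in Sin3a KD libraries, while NC libraries spread over 106, 282 and 159. The knockdowns did not overlap, and the NC spread covered the gap between them. Its log2 fold change in Hdac1/2 cKD against Sin3a KD was -1.63 ± 0.33 SE (limma adjusted p = 0.00436), kept in every fit tried. Against NC, Hsd17b7 was called lower in Hdac1/2 cKD only with lane as a factor and without NC replicate 1 (lowest adjusted p = 0.0309; 0.0989 with all libraries), and higher in Sin3a KD only without NC replicate 2 (0.029; 0.173 with all libraries).

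The other 7 enzymes after squalene passed in 0 comparisons by limma with all 9 libraries (at an unadjusted p below 0.05, Ebp was higher and Dhcr7 lower in Hdac1/2 cKD against NC, and Ebp and Sc5d were higher in Hdac1/2 cKD against Sin3a KD). Ebp, a sterol isomerase, had counts of 852, 1153 and 1029.5 in Hdac1/2 cKD and 814, 812 and 704 in Sin3a KD, against 769, 763 and 714 in NC. Its Hdac1/2 cKD libraries were above all others, with an adjusted p of 0.054 against NC that fell to 0.0152 at its lowest among the 3 settings in which it passed, 1 of them without Hdac1/2 cKD replicate 1; against Sin3a KD it was 0.0827, and 0.047 without that library. Sc5d, a sterol desaturase, had counts of 156, 217 and 234 in Hdac1/2 cKD and 122, 126 and 29.0 in Sin3a KD, against 72.9, 147 and 92.3 in NC. Its Hdac1/2 cKD libraries too were above all others, but the adjusted p was 0.199 against NC and 0.0752 against Sin3a KD; it passed without Sin3a KD replicate 3 (0.0425, against NC) and without Sin3a KD replicate 2 (0.0475, against Sin3a KD). Lss, which closes the ring to lanosterol, ranged over 594 to 1205 normalised counts in the 9 libraries, Cyp51, the lanosterol demethylase, over 231 to 335, and Dhcr7, a reductase of the last steps, over 859.9 to 1239.6. Tm7sf2, a sterol reductase, and Nsdhl, a dehydrogenase that works with Msmo1, were low, at 15.6 to 76.1 and 15.8 to 80.0. Nsdhl was called higher in Hdac1/2 cKD than in NC once NC replicate 2 was left out (adjusted p = 0.0461).

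Stard4, a carrier that moves cholesterol between membranes inside the cell and is a known SREBP target, was lower in Hdac1/2 cKD than in either other group. Its counts were 677, 698 and 983 in Hdac1/2 cKD libraries and 2007, 1715 and 1833 in Sin3a KD libraries, against 1354, 1479 and 1881 in NC libraries. All Hdac1/2 cKD libraries were below the rest, and Sin3a KD and NC overlapped. The Hdac1/2 cKD mean was 0.50 times that of NC (log2 fold change -1.01 ± 0.16 SE, limma adjusted p = 0.00114) and 0.425 times that of Sin3a KD (-1.25 ± 0.16, adjusted p = 0.000225). Both calls were kept in every fit tried. Sin3a KD against NC gave 0.25, with a 95% interval of -0.10 to 0.59.

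In fatty acid synthesis, Scd2 was called in Hdac1/2 cKD against both other groups, and Scd1 and Elovl6 were called in Sin3a KD against NC and between the knockdowns. Scd1 and Scd2 lie close together on chromosome 19 (chr19:44394455-44407879 on the reverse strand and chr19:44293674-44306864 on the forward strand) for stearoyl-CoA desaturases, which place a double bond in saturated fatty acids. Scd2 had counts of 4687, 4448 and 4748 in Hdac1/2 cKD libraries and 1482, 1396 and 1539 in Sin3a KD libraries, against 1976, 1626 and 2184 in NC libraries. The 3 groups did not overlap. The Hdac1/2 cKD mean was 2.40 times that of NC (log2 fold change 1.27 ± 0.11 SE, limma adjusted p = 1.63e-05) and 3.14 times that of Sin3a KD (1.65 ± 0.11, adjusted p = 2.72e-06), and both calls were kept in every fit tried. Sin3a KD was below NC in every library, with a log2 fold change of -0.38 (adjusted p = 0.0583); it passed under a mean of at least 50, with the replicate number as a block and without NC replicate 2 (lowest adjusted p = 0.0105).

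Scd1 had counts of 960.2, 1098 and 1061 in Hdac1/2 cKD libraries and 686, 860.3 and 741 in Sin3a KD libraries, against 1572, 1121 and 1489 in NC libraries. NC was highest and Sin3a KD lowest, with no overlap between groups. Scd1 fell in Sin3a KD against NC (0.547 times the NC mean, log2 fold change -0.86 ± 0.15 SE, limma adjusted p = 0.00542), a call kept in all 9 fits that leave out 1 library and lost without trend and robust moderation (0.0532), with lane as a factor (0.0704) and without both single-lane libraries (0.0974). In Hdac1/2 cKD against NC its log2 fold change was -0.41, with a 95% interval of -0.73 to -0.09 (adjusted p = 0.0781; 0.0156 without NC replicate 2). It was higher in Hdac1/2 cKD than in Sin3a KD at the edge of the threshold (0.45, adjusted p = 0.0499), a call kept in 8 of 20 alternatives and lost without any Hdac1/2 cKD replicate or Sin3a KD replicate 1 or 3 (0.074 to 0.177). In Hdac1/2 cKD, then, the libraries were all above NC for Scd2 and all below NC for Scd1. Per kilobase of the longest coding transcript, the ratio of Scd2 to Scd1 within a library was 3.96 ± 0.37 in Hdac1/2 cKD, 1.73 ± 0.26 in Sin3a KD and 1.23 ± 0.10 in NC (SD, n = 3 libraries each). The groups did not overlap in any pair, for which an exact permutation test with 3 against 3 libraries gives its smallest possible two-sided p of 0.1 (0.18 after Benjamini-Hochberg adjustment over the 9 ratio tests made). In Hdac1/2 cKD against NC this outcome was fixed beforehand, since neither gene overlapped and they lay on opposite sides. The ratio test there adds nothing to the values of the single genes. Scd1 shares 8.14% and Scd2 6.81% of 31-base words with other genes, mainly Scd3.

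Elovl6, the elongase that lengthens palmitate, had counts of 5048, 4452 and 4156 in Hdac1/2 cKD libraries and 3482, 3837 and 3056 in Sin3a KD libraries, against 5626, 4769 and 4499 in NC libraries. Sin3a KD lay below all other libraries, and Hdac1/2 cKD and NC overlapped. Elovl6 fell in Sin3a KD against NC (0.697 times, log2 fold change -0.52 ± 0.12 SE, limma adjusted p = 0.0174) and was higher in Hdac1/2 cKD than in Sin3a KD (0.40, adjusted p = 0.0327). The first call was lost without NC replicate 1 (0.0639), Sin3a KD replicate 1 (0.064) or 3 (0.0861), without trend and robust moderation (0.105), with lane as a factor (0.212) and without both single-lane libraries (0.162). The second was lost without Hdac1/2 cKD replicate 1 (0.143) or 2 (0.0791), Sin3a KD replicate 1 (0.0832) or 3 (0.133), and with lane as a factor (0.233). It was also lost without trend and robust moderation (0.126) and without both single-lane libraries (0.0705). Acly, which supplies acetyl-CoA to the cytosol from citrate, Acaca, which makes malonyl-CoA, and Fasn, fatty acid synthase, passed in 0 comparisons (limma; 0 also at an unadjusted p below 0.05). Over the 9 libraries Acly ranged over 3635 to 4455 normalised counts and Acaca over 1071 to 2017. Fasn varied widely within groups, with 1753, 686 and 1289 in Hdac1/2 cKD and 965, 669 and 718 in Sin3a KD, against 911, 413 and 1641 in NC, so a change of moderate size could not be seen (95% interval of the log2 fold change in Hdac1/2 cKD against NC -0.83 to 1.72). Acaca shares 33.4% of its 31-base words with other genes, mainly Gm5182.

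**Figure D3:**
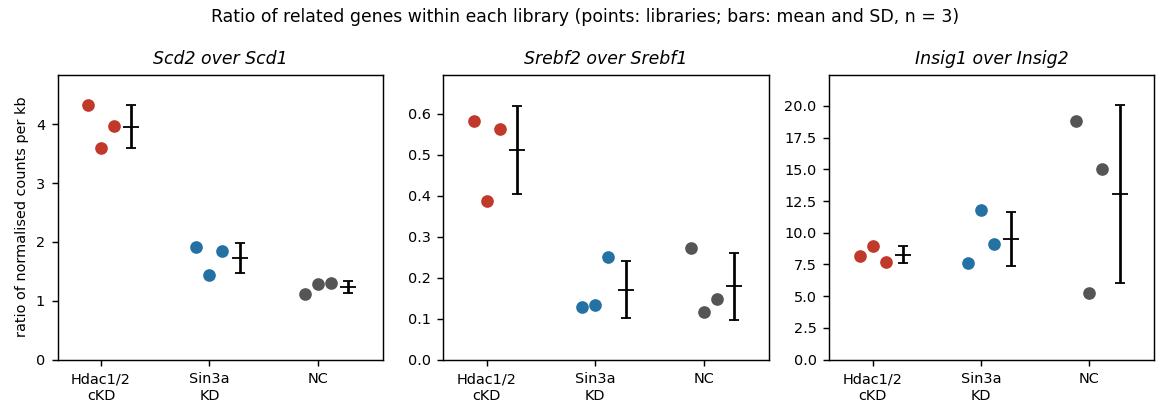
Ratio of normalised counts per kilobase between related genes within each library (points), with the mean and SD of the 3 libraries per group; each axis starts at 0. Scd2 over Scd1 separates all 3 groups, Srebf2 over Srebf1 separates Hdac1/2 cKD from the others, and Insig1 over Insig2 overlaps between all groups.

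Srebf2 stayed below Srebf1 per kilobase in every library, yet its ratio to Srebf1 was 0.510 ± 0.107 in Hdac1/2 cKD and 0.171 ± 0.069 in Sin3a KD, against 0.179 ± 0.082 in NC (SD, n = 3 libraries each). Hdac1/2 cKD libraries did not overlap with either other group (exact permutation test, two-sided p = 0.1, the smallest possible; 0.18 adjusted over 9 tests). The ratio of Insig1 to Insig2 was 8.28 ± 0.66 in Hdac1/2 cKD and 9.53 ± 2.14 in Sin3a KD, against 13.0 ± 7.0 in NC, with overlap in every pair.

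Other genes of the pathway were looked at from 3 further lists, also chosen with earlier results of these data known. Of 18 other SREBP pathway and target genes, 5 rose and 1 fell in Hdac1/2 cKD against NC. In Sin3a KD against NC 1 rose and 1 fell, and 3 were higher and 1 lower in Hdac1/2 cKD than in Sin3a KD. The shares called were 33.3%, 11.1% and 22.2% in this order, beside 15.6%, 7.96% and 17.3% of all tested genes. Median log2 fold changes were 0.45, 0.23 and 0.17 (0.03, 0.03 and 0.01 over all tested genes). Fads1, a desaturase for polyunsaturated fatty acids, had counts of 378, 380.0 and 465 in Hdac1/2 cKD and 160.3, 184 and 186 in Sin3a KD, against 176, 241 and 202 in NC. Its Hdac1/2 cKD libraries were above all others (log2 fold change 0.98 against NC, limma adjusted p = 0.00472, and 1.20 against Sin3a KD, 0.00115), and both calls were kept in every fit tried.

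Mbtps1, the protease that makes the first cut in SREBP precursors, was lower in Sin3a KD than in NC (-0.80, adjusted p = 0.0071; 0.0523 to 0.0936 in the 3 alternatives that lost it) and higher in Hdac1/2 cKD than in Sin3a KD (0.63, 0.0098). Aacs, which makes acetoacetyl-CoA from ketone bodies, fell in Hdac1/2 cKD against NC (-0.55, adjusted p = 0.00965; 0.0659 without trend and robust moderation). Slc25a1, the mitochondrial citrate carrier, rose in Hdac1/2 cKD against NC at low counts (1.72, limma adjusted p = 0.0223). Its change in Sin3a KD against NC was of similar size but did not pass (1.59, limma adjusted p = 0.0507). Between Hdac1/2 cKD and Sin3a KD it was 0.13 (limma adjusted p = 0.887). The Slc25a1 call was lost without NC replicate 1 (0.0737) or Hdac1/2 cKD replicate 2 (0.0792) or 3 (0.0855). It was also lost without trend and robust moderation (0.0763), with lane as a factor (0.0841) and without both single-lane libraries (0.0988).

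Of 12 genes of cholesterol export, esterification and trafficking, 11 were tested (Lipa was too low). In Hdac1/2 cKD 1 rose and 2 fell, both against NC and against Sin3a KD. Each time 27.3% of the 11 were called, beside 15.6% and 17.3% of all tested genes. Osbpl2, a lipid transfer protein of the oxysterol-binding family, had counts of 483, 432 and 459 in Hdac1/2 cKD and 930.2, 869 and 809 in Sin3a KD, against 853, 790.0 and 912 in NC, below all other libraries, with a log2 fold change of -0.89 against NC (limma adjusted p = 0.000617). Npc2, which binds cholesterol in the lysosome, changed by -0.44 (adjusted p = 0.00703; 0.0552 without trend and robust moderation), and Stard3, a sterol carrier of late endosomes, by 0.62 (0.0465, kept in 6 of 20 alternatives and, of the 9 fits that leave out 1 library, only without Sin3a KD replicate 3, with 0.0577 to 0.163 in the others). In Sin3a KD against NC 0 of the 11 passed (limma, with 2 higher and 1 lower at an unadjusted p below 0.05), beside 7.96% of all tested genes. The median log2 fold changes of this list were -0.44 in Hdac1/2 cKD and -0.07 in Sin3a KD against NC.

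In the isoprenoid branch, which uses farnesyl diphosphate for other products, 0 of 9 genes rose and 2 fell in Hdac1/2 cKD against NC. At an unadjusted p below 0.05 (limma) 0 were higher and 2 lower. The 2 genes that fell are 22.2% of the 9, beside 7.8% of all tested genes that fell (15.6% were called in either direction). They were Nus1 (log2 fold change -0.42, adjusted p = 0.0336) and Dhdds (-0.39, adjusted p = 0.0413), which encode the partners of the enzyme that makes the dolichol chain. Nus1 stayed called in 10 of 20 alternatives and was lost without NC replicate 2 or 3 or any Hdac1/2 cKD replicate (0.0506 to 0.0988). Dhdds stayed called in 6 of 20 and, of the 9 fits that leave out 1 library, only without NC replicate 3 (0.0533 to 0.125 in the others). In Sin3a KD against NC 0 of 9 passed (limma, 0 also at an unadjusted p below 0.05), beside 7.96% of all tested genes. Dhdds was lower in Hdac1/2 cKD than in Sin3a KD (-0.59, adjusted p = 0.00431), in every fit tried.

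Sequencing lanes differed between the groups, with Hdac1/2 cKD libraries on lanes 2, 2 and 3, Sin3a KD on 4, 3 and 3, and NC on 5, 2 and 3. Within lane 2, with 2 Hdac1/2 cKD libraries against 1 NC library, the log2 differences were 2.59 for Srebf2, 0.59 for Insig1, 1.49 for Scd2, -1.16 for Msmo1, -1.10 for Stard4, -0.53 for Sqle and -0.21 for Fdft1. Within lane 3, with 1 library each, they were 2.12, 0.54, 1.12, -0.91, -0.94, -0.40 and -0.83 in the same order of genes. These are sizes only: the groups of all 7 genes do not overlap, so the direction within a lane was fixed beforehand. Sin3a KD against NC within lane 3 (2 libraries against 1) gave -0.90 for Scd1, -0.39 for Elovl6 and -0.55 for Msmo1. The groups do not overlap for these genes either, so their direction was also fixed beforehand. Lanes 4 and 5 hold a single library each (Sin3a KD replicate 1 and NC replicate 1), which enters no such difference. No single lane was tested alone. The fit with lane as a factor, which compares libraries within lanes, called 6 of the 31 genes in Hdac1/2 cKD against NC, 0 in Sin3a KD against NC (limma; 6 at an unadjusted p below 0.05) and 6 in Hdac1/2 cKD against Sin3a KD.

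**Figure D4:**
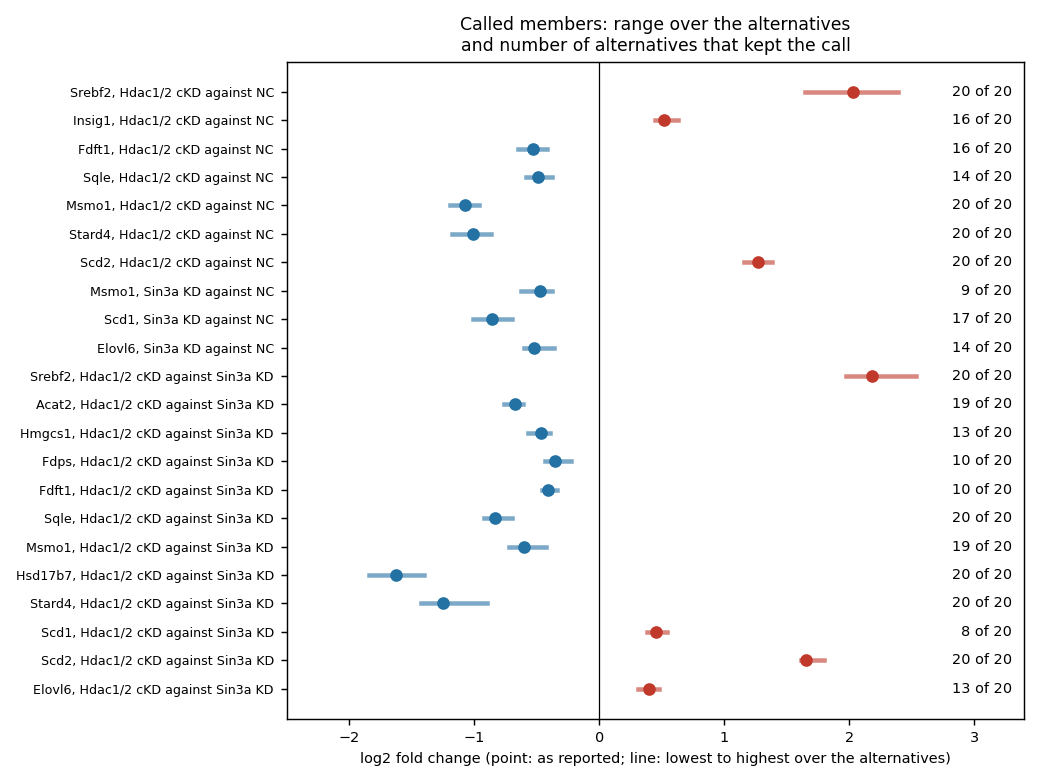
Log2 fold change of the 22 calls (13 genes, 3 comparisons) as reported (points), with the lowest and highest value over 20 alternative analyses (lines) and the number of alternatives in which the call was kept. Lines show how far the size moved; 9 of the 22 calls were kept in all 20 alternatives.

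Over 20 alternative analyses, 9 of the 22 calls were kept in each: Srebf2, Msmo1, Stard4 and Scd2 in Hdac1/2 cKD against NC, and Srebf2, Sqle, Hsd17b7, Stard4 and Scd2 in Hdac1/2 cKD against Sin3a KD. Of the 3 calls in Sin3a KD against NC, 0 were kept in each alternative. In the 9 fits that leave out 1 library 12 of the 22 calls were kept in all.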

How the data were processed

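Polyadenylated RNA from pooled embryos was sequenced in 9 libraries, 3 per group. Per the submitters' processing notes, the tools were Salmon for counting and DESeq2 for normalisation, with build GRCm38, and no source used here gives their versions. The deposited signal values are gene-level counts after that normalisation. Depending on the library, 55.0% to 69.3% of low values were whole multiples of 1 read to within 0.1, so whole reads were not recovered. Added RFP and GFP RNA, named in the labels, had 0 entries under those names.

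Values were taken as log2(value + 1), on which fold changes of low genes are understated, and fitted over all 9 libraries by limma 3.58.1 (R 4.3.3; group means, trend and robust moderation). Genes needed 10 or more in at least 3 libraries, with Benjamini-Hochberg adjustment over the 13343 tested genes and a threshold of 0.05. The fit was tested on simulated data. Ratios of means are of normalised counts. The 31 genes and all lists were chosen with earlier results of these data known. Values per library are given for each of the 31 genes that passed and for the regulators; of each further list, up to 4 called genes per comparison with the lowest adjusted p were eligible to be named. Some genes counted in those lists are not reported here by name. Ebp, Sc5d and Fasn were given in full after their values were seen. Sequence sharing was counted in 31-base words on GENCODE vM21 transcripts, and promoter letters came from RefSeq. TMM scaling factors were computed from the deposited values. The alternatives were other pseudocounts, filters, scalings, moderation, groups in the fit, lane, a replicate block and leaving out each library; leaving out both libraries with a lane of their own was added after the data were seen. The 1 line without a gene name (at most 0.00896% of a library) was left out.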

Additional observations from a re-analysis of the deposited data

How the results depend on the processing

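Counts of called genes among the 31 stayed within 1.5 times the reported count under other pseudocounts, filters and scalings and with only the compared groups in the fit. Without NC replicate 1 and Sin3a KD replicate 1, each on a lane of its own, the count was 4 in Hdac1/2 cKD against NC (7 as reported), 0 in Sin3a KD against NC (3 as reported; 4 genes at an unadjusted p below 0.05 by limma) and 7 in Hdac1/2 cKD against Sin3a KD (12 as reported). With lane as a factor it was 6 for Hdac1/2 cKD against NC, 0 for Sin3a KD against NC (6 genes at an unadjusted p below 0.05) and 6 between the knockdowns, and without trend and robust moderation it was 5, 0 (7 at an unadjusted p below 0.05) and 7 in the same order. The count between the knockdowns was no higher than that in Hdac1/2 cKD against NC with lane as a factor and without Sin3a KD replicate 1 or 3. The lane factor and the smaller fit compare fewer libraries by construction. Leaving out 1 library at a time gave 5 to 9 in Hdac1/2 cKD against NC, 1 to 5 in Sin3a KD against NC and 7 to 13 between the knockdowns; the 1 came without NC replicate 1 or Sin3a KD replicate 1 or 3, the 5 without NC replicate 2, and the 7 without Hdac1/2 cKD replicate 2 or Sin3a KD replicate 1. A group with a library left out has 2 libraries, and the spread is pooled over groups.

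Between groups, deviations from the group means correlated by -0.0193 to 0.0581 for libraries with the same replicate number and by -0.0432 to 0.0331 for the others. These values are small in both cases, but they cannot show whether equal numbers share a collection, which the labels do not give. With the replicate number as a block the counts were 7 in Hdac1/2 cKD against NC, 4 in Sin3a KD against NC and 11 between the knockdowns. Scaling to equal totals moved the median log2 fold change of all genes to 0.15 in Hdac1/2 cKD against NC and 0.12 in Sin3a KD against NC (0.03 in each as reported). Of 1414 fits of genes not called as reported, 58 changed sign and 23 passed, 0 of them with the other sign. With 3 libraries per group and an estimated 8.38 M reads in the shallowest, genes of low count such as Tm7sf2, Nsdhl and Mvk have wide intervals.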
